A study of Mus musculus with 3 samples.

Results

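The Dlx homeobox genes were examined for chromatin occupancy by TRα1, the alpha 1 form of the thyroid hormone receptor. A TRα1 binding site, hereafter site, was counted at Dlx1, Dlx2, Dlx3, Dlx4, Dlx5 or Dlx6 when its summit lay in the gene body or within 30 kb of the 5-prime end of the gene. The 3 pairs Dlx1/Dlx2, Dlx5/Dlx6 and Dlx3/Dlx4 were each taken as a unit. Of the 23988 sites in the deposited list, 6 met this rule. There were 3 sites at Dlx1/Dlx2, 3 at Dlx5/Dlx6 and 0 at Dlx3/Dlx4. The genes had been chosen by name and not by a measured value, but with earlier results of these data known.

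TRα1 ChIP-seq had been performed on the striatum of male C57BL/6J mice, labelled adult with an age of 8 and no unit. The paper that reported the data gives 8 weeks. The mice were euthyroid, had received no treatment, and carried a GS-tagged TRα1 restricted to GABAergic neurons. The series held 2 ChIP libraries and 1 input library, and 1 peak list for all of them. Because the list has no values for single libraries, no comparison between replicates was possible, and the number of reads per library is unknown here. The receptor measured is the tagged one, and the transgene driver that restricts it is not given in the sources used here. No expression was measured in this series, so that the labelled cell type could not be checked against its markers.

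Dlx genes encode homeodomain transcription factors related to Distal-less of Drosophila. In mammals they lie in convergent pairs, the 3-prime ends of both genes facing each other. The genes of the pairs Dlx1/Dlx2 and Dlx5/Dlx6 are known for their action in the ganglionic eminences of the embryonic forebrain, where GABAergic neurons of the striatum and the cortical interneurons arise. Dlx3 and Dlx4 are better known for roles in the placenta, skin, teeth and bone. The sequence between paired genes, and noncoding genes such as Dlx1as and Dlx6os1 (also called Evf2), are known to take part in the control of these loci.

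The sequences of the 3 sites with a GC box are shown to give the context of each match. They are 201 bases of the plus strand of GRCm38, centred on the summit and taken from the RefSeq genome sequence. Capitals mark an exact match, on either strand, to the GC box GGGCGG or to the cyclic AMP response element (CRE) TGACGTCA.
Dlx1/Dlx2 site 1, chr2:71541310-71541510: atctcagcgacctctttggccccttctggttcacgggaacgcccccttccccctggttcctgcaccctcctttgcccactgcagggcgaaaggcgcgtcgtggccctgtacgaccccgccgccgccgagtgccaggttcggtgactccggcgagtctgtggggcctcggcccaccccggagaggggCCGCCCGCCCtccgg
Dlx5/Dlx6 site 2, chr6:6862750-6862950: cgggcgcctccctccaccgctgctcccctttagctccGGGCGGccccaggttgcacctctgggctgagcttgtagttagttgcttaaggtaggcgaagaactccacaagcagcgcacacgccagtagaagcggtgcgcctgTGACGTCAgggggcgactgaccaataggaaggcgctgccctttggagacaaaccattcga
Dlx5/Dlx6 site 3, chr6:6863686-6863886: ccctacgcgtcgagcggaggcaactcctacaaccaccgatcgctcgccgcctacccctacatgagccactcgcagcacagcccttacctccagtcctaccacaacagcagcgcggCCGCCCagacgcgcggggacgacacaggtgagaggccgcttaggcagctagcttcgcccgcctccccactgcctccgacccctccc
In Dlx1/Dlx2 site 1 the capitals hold overlapping GC boxes read on the minus strand. In Dlx5/Dlx6 site 2 they hold a GC box and then the CRE, at chr6:6862891-6862898, 41 bp after the summit. In Dlx5/Dlx6 site 3 they hold a GC box on the minus strand. Dlx1/Dlx2 site 3 and Dlx5/Dlx6 site 1 had neither of these matches, nor the nuclear receptor hexamer AGGTCA, in the same window.

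Each site is described by the values that the peak caller MACS gives at its summit. The pileup counts the ChIP fragments that cover the summit. The fold enrichment divides this pileup by the background expected locally, after adding 1 to each. The score is 10 times −log10 of the q-value. The interval given for a pileup is the exact Poisson 95% interval. It covers counting error only, not the variation between mice, and it does not allow for the summit being the highest point of the site.

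Dlx1 and Dlx2 lie on chromosome 2, Dlx1 at chr2:71528113-71533981 on the plus strand and Dlx2 at chr2:71543408-71546754 on the minus strand. Site 1, at chr2:71541098-71541614, had a pileup of 25 (95% interval 16.2 to 36.9), a fold enrichment of 7.58 and a score of 145. Site 2 had a pileup of 18 (10.7 to 28.4), a fold enrichment of 7.07 and a score of 105. Both summits were in the interval between the genes and were 1070 bp apart, closer to Dlx2 than to Dlx1. Site 1 was 1998 bp and site 2 was 928 bp from the 3-prime end of Dlx2, against 7429 bp and 8499 bp from that of Dlx1. Measured from the 5-prime ends, sites 1 and 2 were 5344 and 4274 bp downstream of that of Dlx2 and 13297 and 14367 bp downstream of that of Dlx1. No annotated gene body covered either summit. The closest start upstream of which they lay was that of Dlx1as, a noncoding gene antisense to Dlx1, at 3519 and 4589 bp.

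Site 3 of this pair, at chr2:71563363-71563658, was intergenic and lay 16735 bp upstream of Dlx2. It had a pileup of 14 (7.65 to 23.5), a fold enrichment of 5.55 and a score of 66. This was the lowest pileup found in the whole list, in which 255 sites share the same pileup and fold enrichment. The summit was 35376 bp from the 5-prime end of Dlx1, outside the 30 kb limit, and the site was therefore counted for Dlx2 only.

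Dlx5 and Dlx6 lie on chromosome 6, Dlx6 at chr6:6863334-6868568 on the plus strand and Dlx5 at chr6:6877805-6882085 on the minus strand. All 3 sites of this pair were at the Dlx6 end and inside the body of Dlx6os1, a long noncoding gene transcribed on the opposite strand of Dlx6, at chr6:6820189-6871592. Site 1, at chr6:6855038-6855460, had a pileup of 14 (7.65 to 23.5), a fold enrichment of 5.58 and a score of 66, values that it shared with many other sites at the lower limit of the list (1855 with this pileup and fold). Its summit was 8083 bp upstream of Dlx6, in an exon of Gm44094, a gene model still to be experimentally established.

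The other sites of this pair flanked the 5-prime end of Dlx6, with summits 936 bp apart. Site 2, at chr6:6862628-6863048, lay 484 bp upstream of Dlx6 in an intron of Dlx6os1. It had a pileup of 22 (13.8 to 33.3), a fold enrichment of 6.70 and a score of 116. Site 3, at chr6:6863605-6864048, had a pileup of 18 (10.7 to 28.4), a fold enrichment of 7.07 and a score of 105. Its summit was 452 bp downstream of the 5-prime end of Dlx6, in the coding part of exon 1 (chr6:6863334-6863827). The 5-prime end of Dlx5 was 26834, 19235 and 18299 bp from sites 1, 2 and 3. These sites thus counted for Dlx5 only through the distance rule, and no summit lay in Dlx5 or between Dlx5 and Dlx6.

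Dlx3 and Dlx4 lie on chromosome 11, Dlx3 at chr11:95120119-95125296 on the plus strand and Dlx4 at chr11:95140447-95146263 on the minus strand. No site was listed at either gene, at the noncoding Dlx4os that overlaps Dlx4, or between them. The nearest site was in an exon of Itga3, which encodes an integrin alpha subunit. It lay 43.8 kb upstream of Dlx3 and was covered by 14 fragments at its summit (fold enrichment 5.58). The list contains only sites above a minimum score, so that weaker occupancy of this pair cannot be told apart from its absence.

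**Figure D1:**
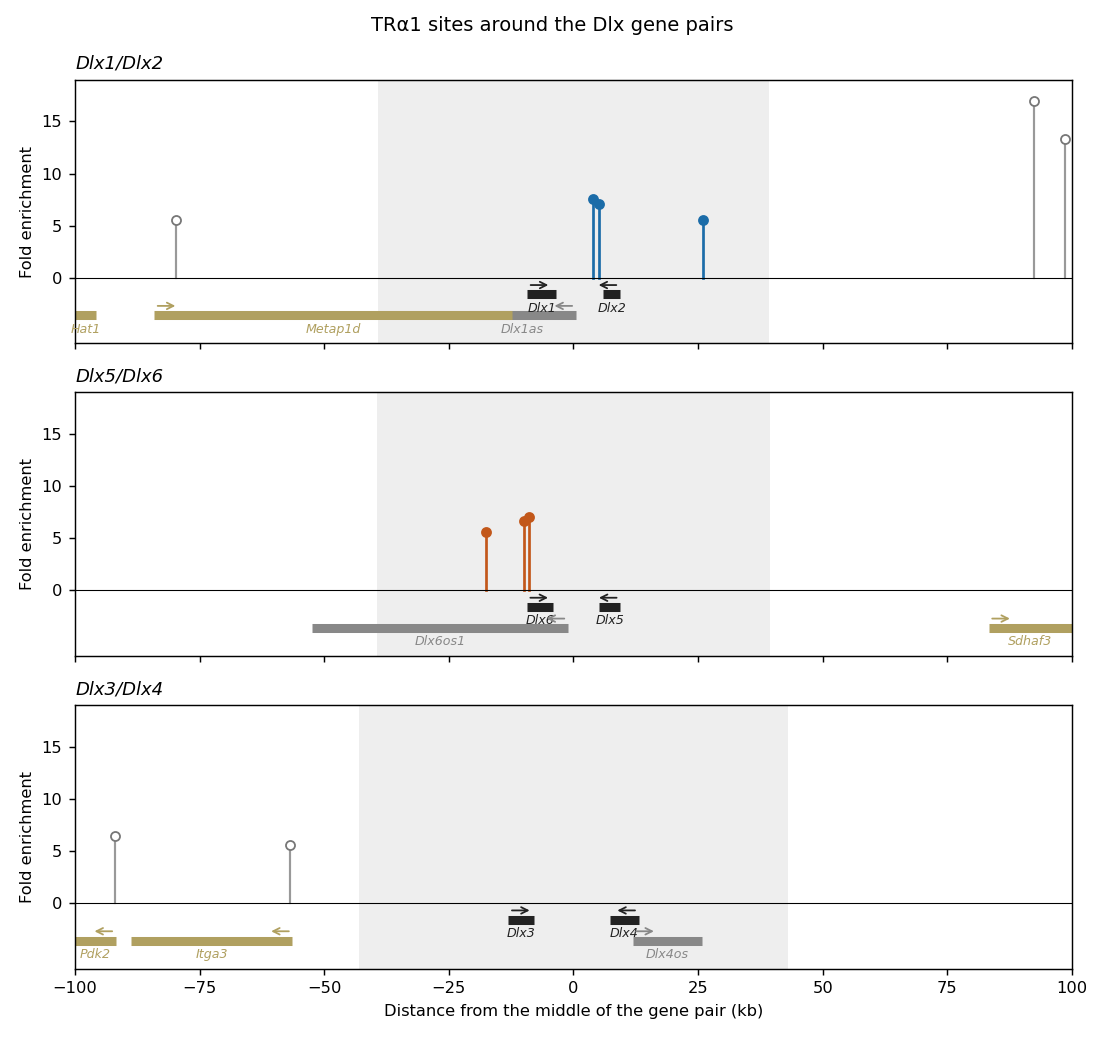
The fold enrichment of each site (vertical axis, ratio to local background) is plotted against the distance of its summit from the middle of each pair in kb, 1 panel per pair. Filled points are sites counted at a Dlx gene, open points other sites, the shaded area the 30 kb rule, and bars with arrows the genes and their direction. The 3 sites of Dlx1/Dlx2 include 2 between the genes, the 3 of Dlx5/Dlx6 are left of Dlx6 or in its first exon, and the shaded area of Dlx3/Dlx4 is empty.

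By gene, 3 sites were counted for Dlx2, Dlx5 and Dlx6, 2 for Dlx1, and 0 for Dlx3 and Dlx4. Thus 4 of the 6 Dlx genes had at least 1 site, and the same rule found a site at 57.7% of the 21938 protein-coding genes of the annotation. At least 3 sites were found at 3 Dlx genes and at 18.5% of all protein-coding genes. Both counts for the Dlx genes rest on shared sites, since 5 of the 6 sites were counted for both genes of a pair. Within 1 kb of the 5-prime end, a site was found at Dlx6 only, and at 23.2% of all protein-coding genes. The nearest site was 4274 bp from the 5-prime end of Dlx2, 13297 bp from that of Dlx1 and 18299 bp from that of Dlx5. Over all protein-coding genes, 71.2%, 60.5% and 55.9% had their nearest site at least as far away. For Dlx3 (43.8 kb) and Dlx4 (69959 bp) these shares were 38.4% and 28.8%.

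Since the Dlx genes are close neighbours, the pairs were also compared with 2618 pairs of adjacent protein-coding genes that converge without overlap at a distance of up to 20 kb. The interval between the genes was 9.43 kb for Dlx1/Dlx2, 9.24 kb for Dlx5/Dlx6 and 15.2 kb for Dlx3/Dlx4. A site between the genes was found for 1 of the 3 Dlx pairs, Dlx1/Dlx2, and for 7.10% of the convergent pairs. At least 2 sites between the genes, as for Dlx1/Dlx2, occurred in 25 convergent pairs (0.955%). The 1124 pairs with an interval of 5 to 20 kb were also counted. This range was chosen after seeing the data because it includes the 3 Dlx pairs. Of these 1124 pairs, 12.3% had a site between the genes and 23 (2.05%) had at least 2. At least 1 site at either gene was found for 2 of the 3 Dlx pairs and 79.1% of the convergent pairs. At least 3 sites over both genes were found for the same 2 Dlx pairs and 40.8% of the convergent pairs. These shares describe 3 pairs chosen by name, and no test was made.

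The 6 Dlx sites were in the lower and middle range of the list. Their fold enrichment ranged from 5.55 to 7.58, with a median of 6.88 against 7.40 for all sites (quartiles 5.95 and 11.2). A value above the median of all sites was found for Dlx1/Dlx2 site 1 only. In the ranking of all sites by fold enrichment, this site was at the 53.1 percentile, Dlx1/Dlx2 site 2 and Dlx5/Dlx6 site 3 at 47.8, Dlx5/Dlx6 site 2 at 42.8, Dlx5/Dlx6 site 1 at 19.2 and Dlx1/Dlx2 site 3 at 11.3. The median pileup was 18, against 21 for all sites. Among the Dlx sites, the order of pileups was not resolved by counting error, since the highest of the lower limits (16.2) was below the lowest of the upper limits (23.5). The highest fold enrichment was 7.58 (interval 5.01 to 11.0) at Dlx1/Dlx2 and 7.07 (4.34 to 11.0) at Dlx5/Dlx6, so that the pairs were not resolved from each other either. These limits carry the interval of the pileup over a fixed local background. The sites had lengths of 296 to 517 bp, with a median of 422 bp, and the median of all sites was also 422 bp.

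**Figure D2:**
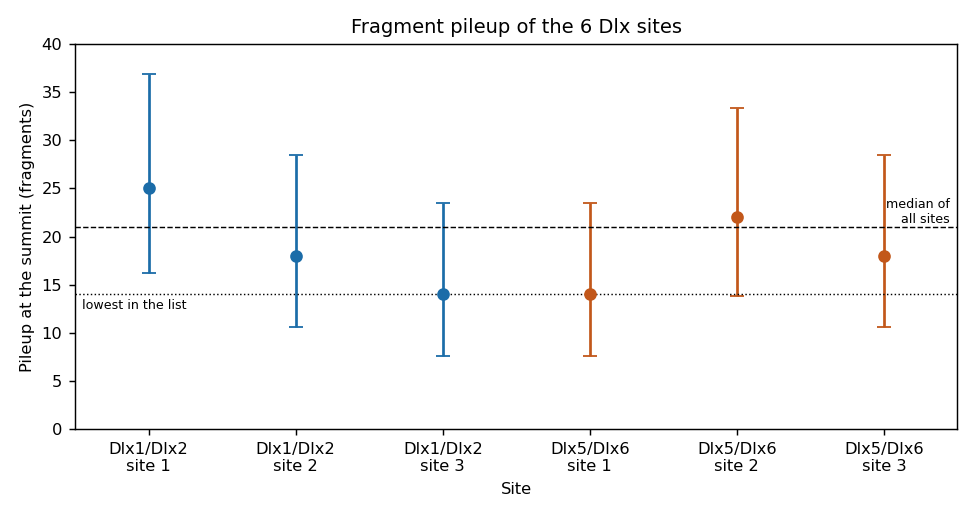
The pileup at the summit (vertical axis, fragments) is plotted for each of the 6 Dlx sites with its exact Poisson 95% interval as a bar. The dashed line is the median of all sites (21) and the dotted line the lowest pileup in the list (14), and the bars of all 6 sites overlap.

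**Figure D3:**
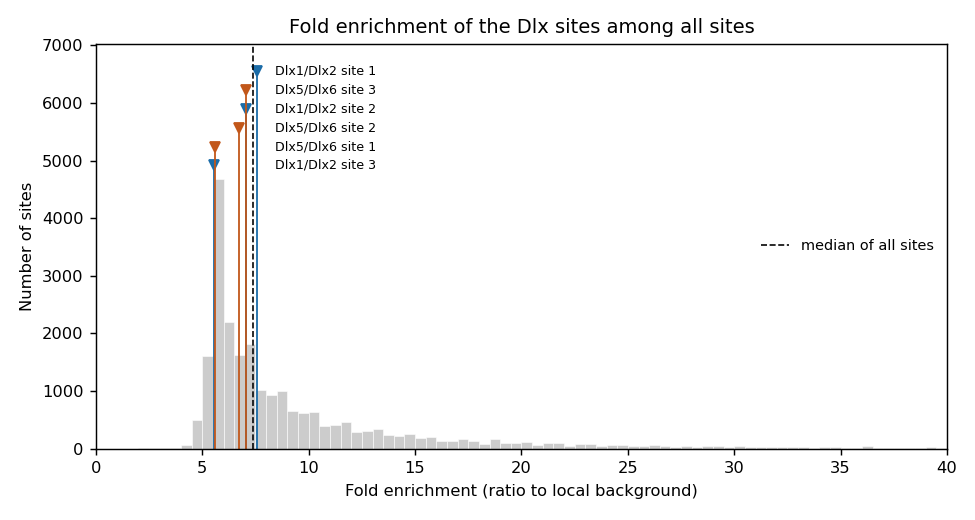
Grey bars count all sites (vertical axis) by fold enrichment (horizontal axis, ratio to local background, shown up to 40), and lines with triangles mark the 6 Dlx sites, listed from the highest to the lowest. The dashed line is the median of all sites (7.40), and 5 of the 6 Dlx sites are to its left.

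The nearest sites beyond the 30 kb limit, many of them far beyond it, were in part stronger than the members. Around Dlx1/Dlx2 they were a site in an intron of Metap1d, 70.5 kb from Dlx1, with a fold enrichment of 5.58, and a pair of intergenic sites 83.2 and 89.3 kb from Dlx2. The latter, at chr2:71629644-71630265 and chr2:71635724-71636187, had pileups of 53 and 35 and fold enrichments of 16.9 and 13.3. The closest sites beyond the limit on the side of Dlx6 were 166.7 kb (fold enrichment 9.67) and 276.8 kb (5.95) away. On the other side of Dlx5/Dlx6, 466.6 kb separated site 3 from the next listed site, and only 4.56% of the intervals between neighbouring sites were as long. Beyond the Itga3 site, the next sites near Dlx3 were in an exon of Pdk2 at 78.9 kb (6.45) and in an intron of Ppp1r9b at 127.0 kb (34.2).

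Peaks in the list are numbered in genomic order, up to 47234, and numbers are missing where a call was absent from the list, which makes it possible to count such calls between listed sites. This count was chosen after seeing the data. In the 267.2 kb without a listed site around Dlx3/Dlx4, 3 numbers were missing. The 1869 intervals of 200 to 400 kb had a median of 2 missing numbers, and 80.4% of them had 3 or fewer. No number was missing between the sites that lie between Dlx1 and Dlx2, nor between those that flank the 5-prime end of Dlx6. Between Dlx5/Dlx6 sites 1 and 2, 2 numbers were missing, and 7 were missing in the interval of 466.6 kb that contains Dlx5. In the interval of 83.8 kb that contains Dlx1, 2 were missing, and 1 was missing in that of 21.0 kb that contains Dlx2. All of these intervals at Dlx1/Dlx2 and Dlx5/Dlx6 were outside the range of 200 to 400 kb, so that their counts have no background here. Positions and values of the missing calls were not analysed here.

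The 2 nearest protein-coding genes on each side of each pair were counted by the same rule. On the side of Dlx1, Metap1d (a mitochondrial methionine aminopeptidase gene, 2919 bp from Dlx1) and Hat1 (a histone acetyltransferase gene) had 1 site each, with fold enrichments of 5.58 and 12.2. On the side of Dlx2, Itga6, an integrin subunit gene, had 3 sites (highest fold enrichment 15.4) and Pdk1 had 0. Near Dlx5/Dlx6, Sem1 and the tachykinin gene Tac1 had 1 site each (5.95 for both), and Sdhaf3 and Slc25a13 had 0. Near Dlx3/Dlx4, Itga3 and the pyruvate dehydrogenase kinase gene Pdk2 had 1 site each (5.58 and 6.45), and Tac4 and Kat7 had 0. Among the noncoding genes, Dlx1as, Dlx6os1 and Dlx6os2 had 3 sites each by the same rule, of which 0, 3 and 0 were in the gene body. A short noncoding gene that is also named Dlx6os1 had 3 sites, 0 of them in its body.

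TR bind DNA as heterodimers with RXR, and their classical response element is DR4, a direct repeat of AGGTCA with a spacer of 4 bases. With at most 2 mismatches in the 12 bases of both hexamers, on both strands and anywhere in the site, a DR4 was found in 0 of the 6 Dlx sites and in 17.3% of all sites. With at most 1 mismatch the numbers were 0 of 6 and 3.86%. With at most 3 mismatches they were 3 of 6, which were the 3 sites of Dlx1/Dlx2, and 52.9%. The best placements in sites 1 and 3 of this pair are shown to give the distance from the element. They are written 5-prime to 3-prime on the strand given, with the positions of the hexamers in capitals.
Dlx1/Dlx2 site 1, chr2:71541562-71541577, minus strand: CGGGCAgggaATGTCA
Dlx1/Dlx2 site 3, chr2:71563381-71563396, plus strand: AGGTCTatcaAGCTCT
Each of these had 3 mismatches. The best placements in Dlx5/Dlx6 sites 1, 2 and 3 had 4 mismatches each. Beyond the 30 kb limit, a DR4 with 2 mismatches was found in the strong site 83.2 kb from Dlx2 and in the site 166.7 kb from Dlx6.

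Around the summits of the Dlx sites, in the same 201 bases, the exact hexamer AGGTCA was found in 1 of 6 and in 17.8% of all sites. The CRE TGACGTCA was found in 1 of 6, Dlx5/Dlx6 site 2, and in 0.542% of all sites. A GC box GGGCGG was found in 3 of 6 and in 18.2%, and within 50 bp of the summit in 1 of 6 and in 11.1%. The homeodomain motif TAATTA, which DLX proteins themselves can bind, the AP-1 motif TGANTCA and the E-box CAGCTG were found in 0 of 6, against 4.62%, 11.5% and 12.8% of all sites. All motifs were searched on both strands, without mismatches, and a hexamer can be part of a DR4. The absence of a match says only that these letters are not in these windows.

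GC content and CpG frequency were uneven among the Dlx sites. The GC content was 71.6% in Dlx1/Dlx2 site 1, 49.8% in site 2 and 42.8% in site 3. It was 47.8%, 61.7% and 68.2% in Dlx5/Dlx6 sites 1, 2 and 3. The median of the 6 was 55.7%, and that of all sites was 50.7% (quartiles 44.8 and 57.7%). The ratio of observed to expected CpG was 0.794, 0.174 and 0.222 in the sites of Dlx1/Dlx2 and 0.456, 0.732 and 0.950 in those of Dlx5/Dlx6, with a median of 0.594 against 0.289 for all sites. The 3 sites with a GC box were also those with the highest GC content and the highest CpG ratio. These measures are not independent, since the GC box consists of G and C and holds a CpG. Of these, Dlx5/Dlx6 sites 2 and 3 flank the start of Dlx6, and Dlx1/Dlx2 site 1 lies between its genes, away from a coding start. The local background of MACS was 2.43 fragments at Dlx1/Dlx2 site 1 and Dlx5/Dlx6 site 2 and between 1.69 and 1.70 at the other sites, where 1.69 is the lowest in the list. Whether base composition contributes to the values of these sites was not tested.

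**Figure D4:**
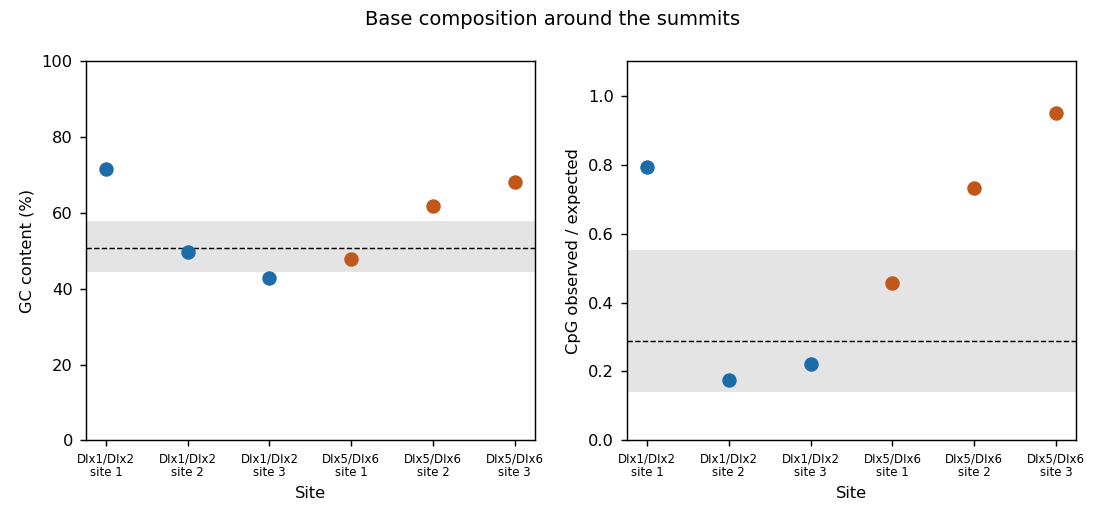
The GC content in percent (left) and the ratio of observed to expected CpG (right) in the 201 bases around the summit are shown for each of the 6 Dlx sites. The dashed lines and grey bands are the medians and quartiles of all sites, and Dlx1/Dlx2 site 1 and Dlx5/Dlx6 sites 2 and 3 are above the bands in both panels.

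To place the Dlx genes among their partners, 5 gene lists were counted by the same rule. They were written from general knowledge, with earlier results of these data known. Of 30 other transcription factor genes that act around the Dlx genes in the ganglionic eminences and their neurons, 15 had at least 1 site (50%, against 57.7% of all protein-coding genes). The most sites were at Foxp1 (25 sites, highest fold enrichment 33.4) and Bcl11b (18, 38.3), followed by Meis2 (9, 16.8) and Foxp2 (4, 6.41). Foxp1 is a long gene, and sites anywhere in the gene body were counted. Other factors known from striatal projection neurons had fewer sites, 2 at Isl1, 1 at Ebf1 and 0 at Ikzf1. Vax1, a homeobox gene of the ventral forebrain, had 2 sites and a fold enrichment of 23.7. Among the 15 genes without a site were Gbx1, Gsx1, Gsx2, Ikzf1, Lhx6, Lhx8, Maf, Nkx2-1, Npas1, Olig2, Pou3f4, Prox1, Sp8 and Zeb2. Of these, Gsx2 acts upstream of the Dlx genes, and Lhx6, Maf and Zeb2 act in cortical interneurons.

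The next list held 20 genes of GABA synthesis, neuronal migration and neuronal identity. These act downstream of the Dlx genes or mark the neurons that depend on them. Of the 20, 16 had a site (80%, against 57.7% of all protein-coding genes). The median was 2.5 sites per gene, against 1 for all protein-coding genes. Gad1 (8 sites, 14.9) and Gad2 (3, 20.7), which encode the enzymes of GABA synthesis, were among them. So were Grin2b, an NMDA receptor subunit gene (14, 33.4), the dopamine receptor gene Drd2 (4, 20.8), the kinase gene Pak3 (2, 24.2), the microtubule protein gene Map2 (5, 7.66) and the guidance receptor gene Robo2 (5, 10.3). The 4 without a site were Calb2, Cxcr4, Npy and Sst. Other genes of the list that are used in interneurons had sites, such as Erbb4 (3, 5.95), Ackr3 (1, 13.4) and Th (1, 5.58). Long genes have more room for sites under this rule. Counting only the 30 kb around the 5-prime end, 11 of 20 downstream genes (55%) and 12 of 30 partner genes (40%) had a site. For all protein-coding genes it was 11698 of 21938 (53.3%), so that the share of the downstream genes was then close to that of all genes.

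The 3 lists of other homeobox genes had shares of 31.6%, 20.5% and 8.33% with a site, without a test against the 57.7% of all protein-coding genes. In the NK-like class, in which the Dlx genes are usually placed, 12 of 38 other genes had a site, including Vax1 (2 sites, 23.7), which is also in the list of partners, Noto (3, 12.5), Tlx2 (2, 13.3), Nkx2-9 (2, 7.47) and Barx2 (1, 9.25). Of 39 Hox genes, 8 had a site. They were Hoxd1 (2, 25.1) and 7 genes of the HoxA cluster, among them Hoxa3, Hoxa10 and Hoxa11. All 7 HoxA genes were counted through the same 1 site, with a fold enrichment of 6.27. Hoxa4, in the same stretch, was not counted because this site was 30.028 kb from its 5-prime end, just beyond the limit. Of 12 homeobox genes of other families, 1 had a site, Six3 (12.2), a gene of the forebrain that is also in the list of partners, and Irx1, Irx2 and Irx3 had 0. The median of the highest fold enrichment was 9.09 for the partners with a site, 10.4 for the downstream genes, 7.45 for the NK-like genes, 6.27 for the Hox genes and 10.04 for all protein-coding genes with a site. For the 4 Dlx genes with a site, the highest values were 7.58 for Dlx1 and Dlx2 and 7.07 for Dlx5 and Dlx6. Genes of a list share sites and differ in length, so that these shares are a description.

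**Figure D5:**
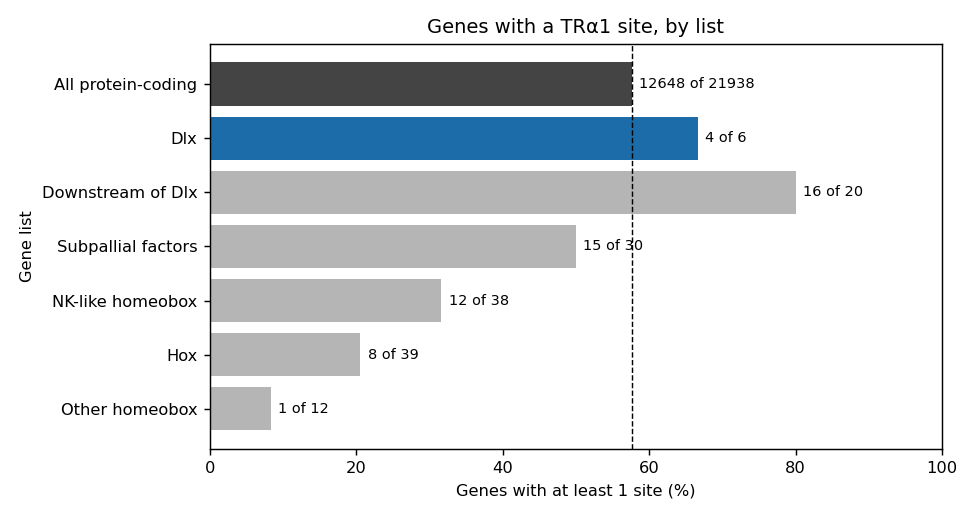
The percentage of genes with at least 1 site (horizontal axis) is shown for all protein-coding genes, the Dlx genes and the 5 gene lists, with counts beside the bars and the share of all protein-coding genes as a dashed line. The Dlx genes (4 of 6) and the downstream genes (16 of 20) are to the right of the line, and the 4 other lists are to its left. Sites in the gene body count here. Within 30 kb of the 5-prime end only, the shares were 55% for the downstream genes and 53.3% for all protein-coding genes.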

How the data were processed

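TRα1 ChIP-seq of mouse striatum was represented by 1 peak list for 2 ChIP libraries and 1 input library, grouped by their titles. Formaldehyde and disuccinimidyl glutarate had both been used for crosslinking. The submitters' processing notes name Bowtie2 2.3.2.2 and MACS2 2.1.1.20160309.0, with the genome GRCm38. The authors removed peaks with a score under 60, and the lowest deposited score was 60. Pooling of the ChIP libraries and the treatment of duplicate reads are not given in the sources used here. The deposited values were the pileup (a signal, as fragment coverage at the summit), the fold enrichment (a ratio to local background), −log10 q, and the score, all from MACS. From the first and second of these the local background was derived.

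Summits were assigned to genes of GENCODE vM21 (21938 protein-coding genes of 55413, the mitochondrial genome left out), and classed as exon, intron, 5 kb upstream, 1 kb downstream or intergenic, in this order. DR4 and exact motifs were searched in the GRCm38 sequence. The sequence of 1 site and some genes of the lists are not reported here. No test was made, because the list has no replicates. The members and the 5 lists (139 entries, 136 distinct genes, all found) were chosen with earlier results of these data known. The genes named were the 6 Dlx genes, noncoding genes that overlap or lie between a pair, the 2 nearest protein-coding genes on each side, and from each list the 4 genes with the highest fold enrichment and the 4 with the most sites. List genes without a site, Erbb4, Ackr3, Th, Isl1 and Ebf1 were named after their values were seen. Alternatives were other scores, distances, positions, mismatch limits, windows and annotations. The tools were pysam 0.24.0, scipy 1.17.1, pandas 2.3.3, numpy 2.4.6, matplotlib 3.10.9 and Python 3.11.15, and gene assignment and DR4 search were tested on simulated data.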

Additional observations from a re-analysis of the deposited data

How the results depend on the processing

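Of 77 alternative values, 57 kept within 1.5 times the count, within the counting interval of the value or within the SD of the 6 sites, and 20 did not. At a score of at least 200, 0 Dlx sites and 0 sites between paired genes were left, so that no highest fold enrichment could be given. Genes with a site fell to 7 partners, 10 downstream, 4 NK-like and 1 Hox gene and 6712 protein-coding genes (30.6%). At a score of at least 100, 4 Dlx sites and 1 Hox gene were left, with a site at 45.3% of all protein-coding genes. A distance of 10 kb gave 5 Dlx sites, 4 NK-like and 3 Hox genes, and a site at 44.7% of all protein-coding genes. At 50 kb, Dlx3/Dlx4 gained a site of fold enrichment 5.58, and 2 of the 12 homeobox genes of other families had a site. That distance gave a site at 66.8% of all protein-coding genes. At 100 kb there were 11 Dlx sites, 1 with a DR4, and the highest fold enrichment was 16.9 at Dlx1/Dlx2 and 6.45 at Dlx3/Dlx4. A DR4 with 3 mismatches was found in 3 Dlx sites. With protein-coding genes only, 1 Dlx site was in an exon, 0 in an intron, 1 upstream, 1 downstream and 3 intergenic, against 2, 1, 2, 0 and 1 with all genes. No paired analysis was possible because the list has no values for single libraries. The same limit prevents any statement on the variation between mice, and pileups of 14 to 25 fragments leave wide counting intervals.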
